A study of Mus musculus with 15 samples.

Results

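The glucocorticoid receptor gene Nr3c1 was described together with 7 genes that glucocorticoids are known to induce, namely Tsc22d3, Fkbp5, Per1, Sgk1, Klf9, Zbtb16 and Ddit4. The cells were LSK cells, the Lin- Sca1+ c-Kit+ fraction of mouse bone marrow that holds the hematopoietic stem cells and the earliest progenitors. The 8 genes were found by matching the Ensembl gene IDs of the count table to mouse symbols. They made up 8 of 45232 gene IDs, and all 8 were among the 17834 genes that passed the filter on low counts and were tested.

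Gene expression was measured by RNA sequencing in 15 libraries of sorted CD45.2+ LSK cells from C57BL/6 mice, 3 libraries in each of 5 groups. In 4 groups the sorted cells descended from donor marrow with both Jak2 V617F and Idh2 R140Q, alleles that are silent until Mx1-Cre, a recombinase switched on by interferon after polyI:polyC injection, acts in hematopoietic and other responsive cells. This marrow had been transplanted in competition with CD45.1 wild-type marrow, and the recipients were treated once a myeloproliferative neoplasm had developed. The fifth group, WT, is labelled wild type only, and the sources used here do not say whether its cells had been transplanted.

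The vehicle group received no inhibitor. The AG221 group received the inhibitor of mutant IDH2 at 40 mg per kg, the Rux group received the JAK1/JAK2 inhibitor ruxolitinib at 60 mg per kg, and the combo group received both. Dosing was BID by gavage over 21 to 28 days, with the last dose about 1.5 hours before sacrifice. The sources used here give neither the hour of sacrifice nor the age of the mice in each group.

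Glucocorticoids cross the cell membrane and bind the receptor encoded by Nr3c1, which an HSP90 chaperone complex holds in the cytoplasm in a form ready for the hormone. The bound receptor moves to the nucleus, where it activates genes such as Tsc22d3 and Fkbp5 at paired DNA sites called glucocorticoid response elements and represses many inflammatory genes, largely by blocking AP-1 and NF-kB. Adrenal glucocorticoid release follows the day and rises under stress, and blood cells of most lineages respond to it. Several genes of this group also answer to other signals: Per1 and Sgk1 are early targets of growth factor and cAMP signalling, and Ddit4 is induced by hypoxia and nutrient stress.

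Promoter sequence is shown for Sgk1, Per1 and Fkbp5. Of the induced genes with a promoter window, these were called as changed below in vehicle against WT and in combo against vehicle. Sgk1 and Per1 went in one direction and Fkbp5 in the other. Zbtb16 was also called in each, but no window was available for it. The windows are RefSeq sequence of GRCm38.p6 and run from 250 bases before a start site to 50 bases after it, on the strand of the gene. Capitals mark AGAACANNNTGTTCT, the palindromic response element, in Sgk1 and the E-box CACGTG, a site for clock and MYC family factors, in Per1 and Fkbp5. The windows lie at chr10:21993640-21993939 on the plus strand for Sgk1, at chr11:69098699-69098998 on the plus strand for Per1, and at chr17:28486100-28486399 on the minus strand for Fkbp5.
Sgk1: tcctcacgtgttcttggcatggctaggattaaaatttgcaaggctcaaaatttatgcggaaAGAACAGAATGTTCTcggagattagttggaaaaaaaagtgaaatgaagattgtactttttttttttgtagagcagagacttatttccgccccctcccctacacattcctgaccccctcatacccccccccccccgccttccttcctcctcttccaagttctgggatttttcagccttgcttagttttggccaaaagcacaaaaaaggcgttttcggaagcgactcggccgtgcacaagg
Per1: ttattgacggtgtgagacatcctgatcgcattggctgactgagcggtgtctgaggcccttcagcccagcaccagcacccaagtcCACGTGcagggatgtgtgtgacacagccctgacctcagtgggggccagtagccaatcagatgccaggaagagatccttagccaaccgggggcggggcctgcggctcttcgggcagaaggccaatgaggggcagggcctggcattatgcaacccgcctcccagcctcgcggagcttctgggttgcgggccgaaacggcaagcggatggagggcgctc
Fkbp5: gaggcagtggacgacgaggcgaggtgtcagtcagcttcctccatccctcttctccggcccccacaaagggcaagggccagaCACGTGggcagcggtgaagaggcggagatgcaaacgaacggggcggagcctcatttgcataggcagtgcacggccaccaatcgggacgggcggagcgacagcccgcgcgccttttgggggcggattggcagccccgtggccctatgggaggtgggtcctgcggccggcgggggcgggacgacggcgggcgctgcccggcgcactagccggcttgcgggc
The palindrome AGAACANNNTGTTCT was found in 3 of 32817 such windows (0.00914%), read on both strands, and 1 of the 3 was that of Sgk1, where the site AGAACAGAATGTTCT lay 189 bases before the start site. It was in 1 of the 6 windows that the table holds for Sgk1. The looser form GNACANNNTGTNC, which contains the palindrome, was in 0.475% of all windows and, of the 6 members with a window in the table, again in Sgk1 only. A single arm, TGTTCT, which overlaps both forms, was in 19% of all windows and in windows of Sgk1 and Tsc22d3. The E-box was in 7.15% of all windows and in windows of 3 members, 169 bases before the start site in Fkbp5, 166 in Per1 and 246 in Sgk1, where it stands in lower case. The cAMP response element TGACGTCA was in 1.79% of all windows and in none of the members' windows. These matches describe the letters of these windows and were not tested against expression.

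The 15 libraries held between 18836625 and 32174287 counts each (median 25545779), and a level of 3 counts, taken as the floor, corresponded to 0.0957 to 0.157 CPM, the read count scaled for library size. Library names begin with A in 3 groups (vehicle, AG221 and Rux) and with B in combo and WT. The letter is not explained, so what it stands for cannot be told apart from the group in any comparison of an A group with a B group. Only AG221 and Rux against vehicle and combo against WT stay within a letter. Xist ranged from 455 to 511 CPM in the WT libraries and was at most 19.5 CPM in the 12 mutant libraries, while the Y-linked gene Ddx3y was at most 0.101 CPM in WT and at least 124 CPM in the others, so WT and mutant cells differed in sex-linked expression in every comparison with WT. The summed level of 11 LSK markers was 3646 to 5550.4 CPM over all libraries, with Kit and Cd34 abundant in every library and Ly6a, the gene for Sca1, lowest at 13.1 CPM in 1 vehicle library. Single markers moved in opposite directions within this sum. In vehicle against WT 3 of the 11 were higher and 3 lower at an adjusted p under 0.05 in edgeR, beside 33.3% of all genes. Mean Flt3 was 572 CPM in WT and 144 CPM in vehicle, and mean Cd48 was 121 and 300 CPM. In bulk samples, fewer cells of a type and less RNA per cell cannot be told apart.

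**Figure D1:**
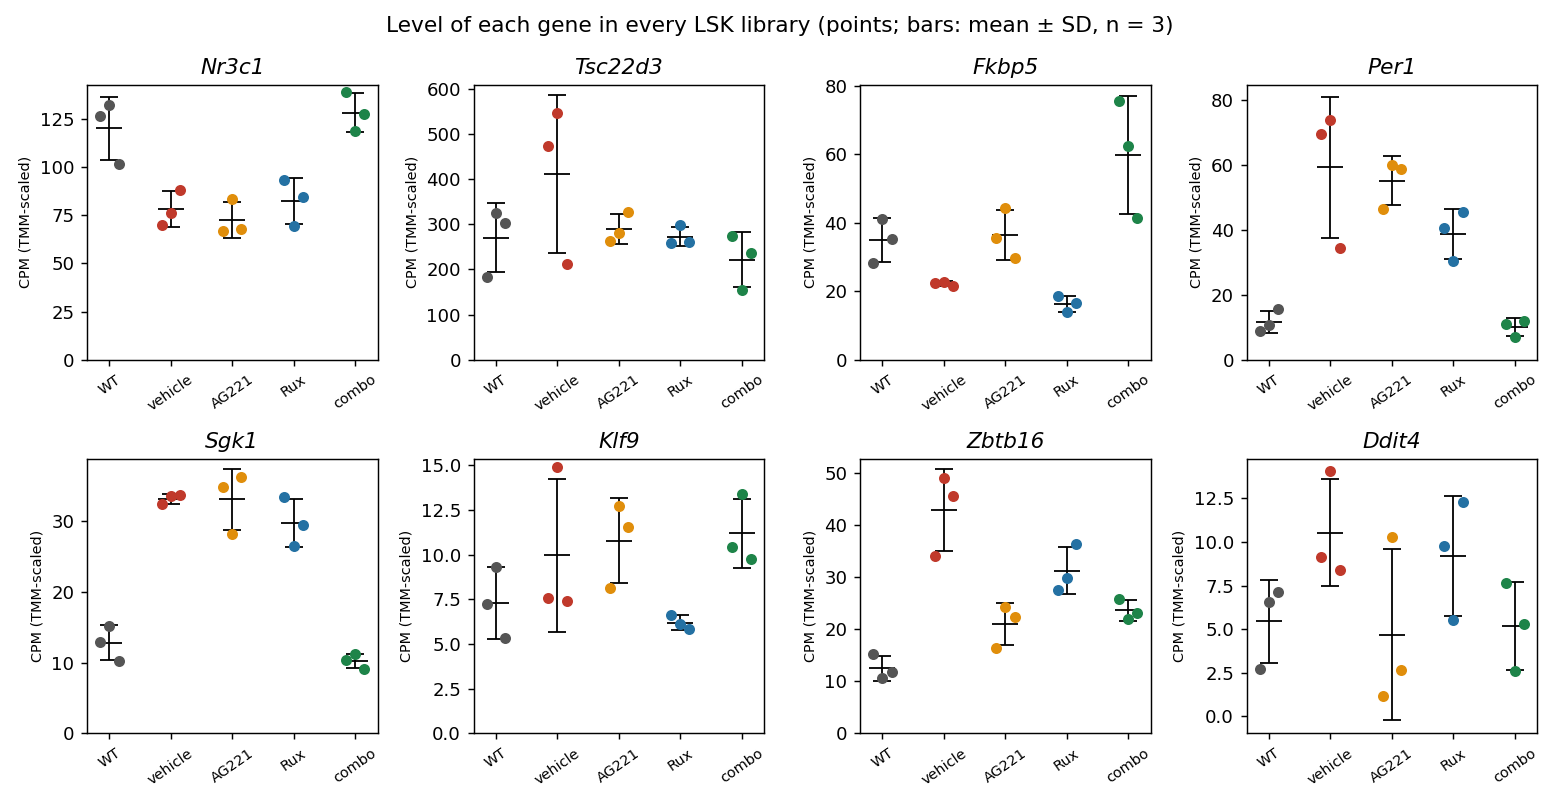
Level of the receptor gene and the 7 induced genes in every library, in CPM scaled by TMM (y axis, linear from 0, or just below 0 for Ddit4 so that its error bar shows) in WT, vehicle, AG221, Rux and combo cells (x axis); points are libraries and bars the mean ± SD of 3. Per1 and Sgk1 are high in the vehicle, AG221 and Rux groups and low in WT and combo, whereas all 6 WT and combo libraries lie above the other 9 for Nr3c1. The 6 carry the letter B and the other 9 the letter A.

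Per1, Sgk1 and Zbtb16 were higher in vehicle-treated mutant LSK cells than in WT cells, and Nr3c1 and Fkbp5 were lower. In combo cells all 5 of these differences ran the other way relative to vehicle. With AG221 alone only Zbtb16 was lower past the threshold, and no gene of the 8 passed it with ruxolitinib alone. Vehicle against WT and combo against vehicle each set letter A libraries against letter B libraries. The reversal therefore cannot be told apart from the letter, whereas AG221 and Rux against vehicle stay within the letter A. Genes were called at a Benjamini-Hochberg adjusted p-value under 0.05 in edgeR's quasi-likelihood test, adjusted over all tested genes. In vehicle against WT, 5 of the 8 genes were called (3 higher, 2 lower), where 33.3% of all tested genes were called. In combo against vehicle, 5 were called (2 higher, 3 lower), where the share of all genes was 12.5%. In AG221 against vehicle the count was 1, beside 0.987% of all genes, and in combo against WT it was 1, beside 3.25%. In Rux against vehicle it was 0, beside 0.0168% of all genes. Klf9 and Zbtb16 had unadjusted p-values of 0.0377 and 0.0429 there, where 813 of 17834 genes had one under 0.05. DESeq2 also called 0 of the 8 in that comparison. The median log2 fold change of the 8 genes was 0.78 in vehicle against WT and -0.88 in combo against vehicle, beside -0.09 and 0.04 over all tested genes. The count over all genes moved with single libraries. In vehicle against WT, 5937 genes were called with all libraries, 1901 without WT B30, 3493 without vehicle A1 and 3717 without vehicle A4. In combo against vehicle it was 2226 with all libraries, 1006 without vehicle A1, 1049 without combo B24 and 1169 without combo B25. In AG221 against vehicle it was 176, then 4672 without AG221 A9, 27 without vehicle A3 and 0 without any other library of the comparison (vehicle A1 or A4, AG221 A8 or A10). The comparisons with vehicle share the 3 vehicle libraries, so the directions of these comparisons are not independent of each other. Where the libraries of groups are said below not to overlap, the share of all tested genes that did likewise was not counted.

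Combined treatment was also set against each drug alone. Against AG221 4 genes were called (Nr3c1 and Fkbp5 higher, Per1 and Sgk1 lower), beside 33.2% of all genes, and against Rux 4 were called (again Nr3c1 and Fkbp5 higher, Per1 and Sgk1 lower), beside 12.4%. For the departure of combo from the sum of both single-drug changes, 3 were called (Fkbp5 higher, Per1 and Sgk1 lower), beside 8.42%.

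**Figure D2:**
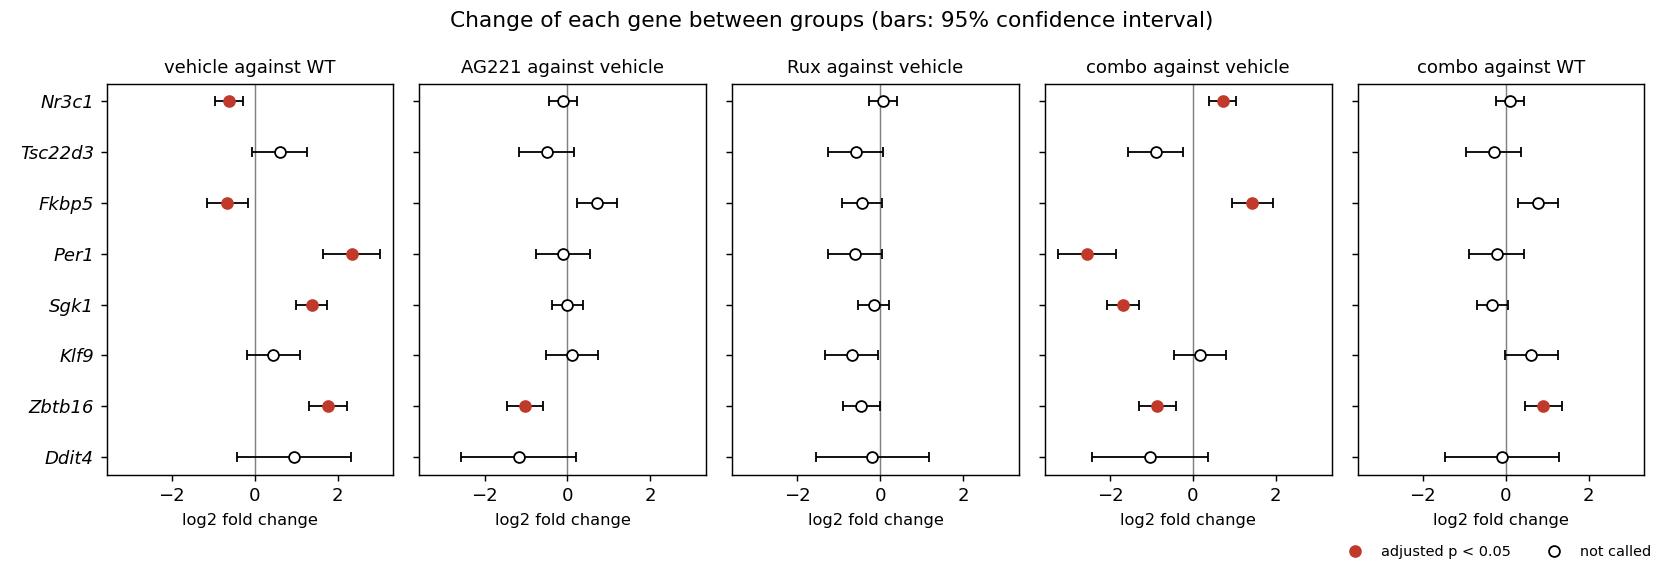
Log2 fold change of each gene (x axis) in 5 comparisons, with 95% confidence intervals from the edgeR fit; filled points passed an adjusted p of 0.05 and open points did not. Intervals are widest for Ddit4, the open points of Nr3c1, Per1 and Sgk1 sit near 0 in combo against WT, and the only filled points of the AG221 and combo against WT panels are those of Zbtb16.

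Nr3c1 (on chromosome 18), the receptor, was the second most abundant of the 8 transcripts per length, with a median of 11.5 CPM per kb of exon. Its level was 126, 132 and 101 CPM in the WT libraries and 70.1, 76.2 and 88.2 CPM in the vehicle libraries. It was 66.5, 83.3 and 67.9 CPM with AG221, 93.2, 69.5 and 84.2 CPM with Rux, and 139, 118 and 127 CPM with combo. Every WT and combo library lay above every library of the other 3 groups, and within each of these 2 sets the groups overlapped. The 2 sets are also the libraries of letter B and of letter A, so group and letter cannot be told apart in this split. How many of all tested genes split in this way was not counted. Vehicle cells had 1.53-fold less Nr3c1 than WT (log2 fold change -0.62, SE 0.16, adjusted p = 0.0123). Combo raised it 1.64-fold over vehicle (0.71, SE 0.16, adjusted p = 0.00967), 1.77-fold over AG221 (adjusted p = 0.0034) and 1.56-fold over Rux (adjusted p = 0.0163). Combo and WT differed by 0.10 (log2, 95% CI -0.24 to 0.43, adjusted p = 0.733). The vehicle against WT call was lost without vehicle A1 (-0.52, adjusted p = 0.057) or WT B30 (-0.54, adjusted p = 0.0628), and with left-out libraries its adjusted p ranged from 0.0127 to 0.0628. The combo against vehicle call was lost without vehicle A1 (0.64, adjusted p = 0.0596) or combo B24 (0.65, adjusted p = 0.0513), with the lowest at 0.0154. The call against Rux was lost without Rux A16 (0.50, adjusted p = 0.0963), Rux A17 (0.63, 0.0599) or combo B24 (0.58, 0.0783), with the lowest at 0.0213.

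Fkbp5 (chr17:28399094-28517527, minus strand) encodes FKBP51, a co-chaperone that the hormone induces and that lowers the receptor's affinity for it. Its level was 28.4, 41.2 and 35.4 CPM in WT and 22.5, 22.7 and 21.4 CPM in vehicle cells, so the groups did not overlap. It was 35.6, 44.2 and 29.7 CPM with AG221 and 18.5, 13.9 and 16.6 CPM with Rux, and these libraries lay wholly above and wholly below those of vehicle. With combo it was 75.6, 62.5 and 41.5 CPM, above every WT library and, apart from combo B26, above every AG221 library. Combo raised Fkbp5 2.70-fold over vehicle (log2 fold change 1.43, SE 0.23, adjusted p = 0.00258) and 3.67-fold over Rux (adjusted p = 0.000692). The difference of combo from AG221 was 0.72 (adjusted p = 0.0269), and it was not called without AG221 A8 or A10 or combo B24 or B25 (0.52 to 0.68, adjusted p 0.0738 to 0.138). Vehicle was 1.58-fold below WT (-0.66, SE 0.22, adjusted p = 0.039). That call held only without WT B28 (adjusted p = 0.0402) and was lost without vehicle A1, A3 or A4 or WT B30 or B31, with values from -0.65 to -0.52 and adjusted p up to 0.16.

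The share of all tested genes whose libraries did not overlap in these comparisons was not counted. The AG221 change of Fkbp5 of 0.72 (95% CI 0.23 to 1.20, adjusted p = 0.0928) and its Rux change of -0.44 (-0.93 to 0.04, adjusted p = 1) were not called. Nor was the excess of combo over WT of 0.77 (0.29 to 1.26, adjusted p = 0.0684). The AG221 change was called in DESeq2 (0.76, adjusted p = 0.0179) and with upper quartile scaling (0.89, adjusted p = 0.0429), over a range of 0.0179 to 0.297 across alternatives. The excess of combo over WT was called in DESeq2 (0.79, adjusted p = 0.0172), with GC content offsets (0.84, adjusted p = 0.0377) and without combo B26 (0.999, adjusted p = 0.0353), and across alternatives its adjusted p reached 0.198. Set against the sum of the single-drug changes, combo was 1.16 (log2, SE 0.32, adjusted p = 0.0446) higher. This call was kept without AG221 A9 or combo B26 and lost without any other 1 of the 12 libraries in it, with values from 0.97 to 1.27 there.

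Per1 (chr11:69095217-69109960, plus strand) encodes a core repressor of the circadian clock, which glucocorticoids induce within hours and which many growth signals induce as an immediate early gene. Its level was 8.78, 10.6 and 15.5 CPM in WT and 69.5, 73.8 and 34.3 CPM in vehicle cells. It was 46.5, 60.0 and 58.7 CPM with AG221, 40.4, 30.3 and 45.5 CPM with Rux, and 11.1, 6.88 and 12.1 CPM with combo. All 9 libraries of the vehicle, AG221 and Rux groups lay above all 6 of WT and combo, and vehicle A4 stood apart from the other vehicle libraries and within the Rux range. The 9 carry the letter A and the 6 the letter B, so this split cannot be told apart from the letter. As for Nr3c1, the number of tested genes with such a split was not counted. Vehicle cells had 5.09-fold more Per1 than WT (log2 fold change 2.35, SE 0.32, adjusted p = 0.000669). Combo lowered it 5.92-fold against vehicle (-2.56, SE 0.32, adjusted p = 0.000757), 5.50-fold against AG221 (adjusted p = 0.000922) and 3.87-fold against Rux (adjusted p = 0.00219). AG221 alone gave -0.10 (95% CI -0.76 to 0.55) and Rux alone -0.61 (-1.27 to 0.04), neither called, and combo differed from WT by -0.22 (-0.88 to 0.45, adjusted p = 0.691). The departure from the sum of both drugs was -1.85 (SE 0.44, adjusted p = 0.0362). It was lost without vehicle A3 or A4, AG221 A8 or A10, Rux A17 or combo B24 or B25, with values from -2.03 to -1.57 there and adjusted p up to 0.094.

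Sgk1 (chr10:21882184-21999903, plus strand) encodes a serum- and glucocorticoid-induced kinase of the PI3K pathway. Its level was 13.0, 15.2 and 10.3 CPM in WT, and 32.4, 33.6 and 33.6 CPM in vehicle cells. It was 34.9, 28.2 and 36.2 CPM with AG221, 33.3, 26.5 and 29.4 CPM with Rux, and 10.3, 11.2 and 9.16 CPM with combo. As for Per1, the 9 libraries of vehicle, AG221 and Rux lay above the 6 of WT and combo with no overlap, and the groups on each side overlapped among themselves. Here too the split is that of letter A against letter B, and its share over all tested genes was not counted. Vehicle cells had 2.59-fold more Sgk1 than WT (log2 fold change 1.37, SE 0.18, adjusted p = 0.000447). Combo lowered it 3.24-fold against vehicle (-1.70, SE 0.18, adjusted p = 0.000183), 3.23-fold against AG221 (adjusted p = 0.000217) and 2.91-fold against Rux (adjusted p = 0.000509). AG221 alone moved it by -0.0036 on the log2 scale (95% CI -0.38 to 0.37) and Rux alone by -0.16 (-0.53 to 0.21). The difference of combo from WT was -0.32 on the log2 scale (95% CI -0.70 to 0.05, adjusted p = 0.261). Of the 3 departures from the sum of both drugs, that of Sgk1 (-1.54, SE 0.25, adjusted p = 0.0114) was the one that stayed called whichever of the 12 libraries was left out.

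Tsc22d3 (chrX:140539528-140600659, minus strand) encodes GILZ, a leucine zipper protein that carries part of the anti-inflammatory action of glucocorticoids. It was the most abundant of the 8 transcripts per length, with a median of 63.0 CPM per kb. Its level was 183, 325 and 303 CPM in WT and 473, 547 and 213 CPM in vehicle cells. It was 263, 281 and 327 CPM with AG221, 259, 298 and 261 CPM with Rux, and 274, 154 and 236 CPM with combo. Vehicle A1 and A3 were higher than every other library, but vehicle A4 fell among the libraries of the other groups, so no group stood apart. Vehicle exceeded WT by 0.61 (log2, 95% CI -0.06 to 1.27, adjusted p = 0.139) and combo lay below vehicle by -0.89 (-1.56 to -0.23, adjusted p = 0.0781), neither of them called. Both were called without vehicle A4, at 0.94 (adjusted p = 0.0293) and -1.21 (adjusted p = 0.0124), while with other libraries left out the adjusted p reached 0.385 and 0.238. The change in combo was also called in DESeq2 (-0.90, adjusted p = 0.0412), without a filter on low counts (-0.92, adjusted p = 0.0325) and with GC content offsets (-0.97, adjusted p = 0.0413). The gene is X-linked, and Xist and the Y-linked genes differed between WT and the mutant groups, as given above.

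Klf9 (chr19:23141226-23168134, plus strand) encodes a Krüppel-like repressor that the receptor induces in many tissues, and it was the least abundant per length (median 1.69 CPM per kb). Its level was 7.26, 9.34 and 5.33 CPM in WT, 7.59, 14.9 and 7.42 CPM in vehicle cells, 8.12, 12.7 and 11.6 CPM with AG221, 6.64, 6.15 and 5.82 CPM with Rux, and 10.4, 13.4 and 9.76 CPM with combo. The Rux libraries lay below all vehicle, AG221 and combo libraries, and the combo libraries lay above all WT libraries. How many tested genes showed such gaps was not counted. No comparison called it: the change was -0.69 with Rux (95% CI -1.33 to -0.05, adjusted p = 1), 0.62 in combo against WT (-0.02 to 1.25, adjusted p = 0.212) and 0.85 in combo against Rux (0.21 to 1.50, adjusted p = 0.0829). The last of these was called in DESeq2 (0.83, adjusted p = 0.0393) and in a fit of only the groups compared (0.82, adjusted p = 0.045), with an adjusted p of up to 0.248 across alternatives.

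Zbtb16 (chr9:48654297-48836222, minus strand) encodes PLZF, a zinc finger factor that is strongly induced by glucocorticoids in some tissues, restrains cycling of stem cells and directs the development of NKT cells. Its level was 15.2, 10.7 and 11.8 CPM in WT, 33.9, 49.0 and 45.5 CPM in vehicle cells, 16.4, 24.2 and 22.4 CPM with AG221, 27.6, 29.8 and 36.3 CPM with Rux, and 25.8, 21.9 and 23.2 CPM with combo. WT was lowest and overlapped no other group, vehicle overlapped only Rux, and AG221 and combo overlapped each other. Vehicle cells had 3.41-fold more Zbtb16 than WT (log2 fold change 1.77, SE 0.21, adjusted p = 0.000232). AG221 lowered it 2.04-fold against vehicle (-1.03, SE 0.21, adjusted p = 0.0458) and combo 1.81-fold (-0.86, SE 0.21, adjusted p = 0.0152). Combo stayed 1.88-fold above WT (0.91, SE 0.21, adjusted p = 0.0344). The Rux change was -0.46 (95% CI -0.89 to -0.02, adjusted p = 1). The AG221 call was kept without AG221 A9 (adjusted p = 0.00312) and lost without any other library of the comparison, that is vehicle A1, A3 and A4 and AG221 A8 and A10, with values from -1.18 to -0.85 and adjusted p up to 0.201. The combo call was lost without vehicle A3 (-0.75, adjusted p = 0.0605) or combo B25 (-0.81, adjusted p = 0.068). The combo against WT call was lost without each of its 6 libraries in turn (0.81 to 1.09, adjusted p 0.0529 to 0.138).

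Markers of T and NK cells were examined beside Zbtb16. The summed level of the 11 markers was 202 to 267 CPM in WT, 426 to 486 CPM in vehicle, 621 to 783 CPM with AG221, 444 to 552 CPM with Rux and 416 to 433 CPM with combo. Nkg7 made up most of it, at 150.2 to 216 CPM in WT and 405 to 454 CPM in vehicle cells, and it was the only 1 of 9 tested markers called in vehicle against WT (log2 fold change 1.29, adjusted p = 0.000229). The T cell receptor component Cd3e was at most 1.24 CPM in any library and at 0 in 1 vehicle library, and Gzma was at 0 in at least 1 library of each mutant group. Over the 9 tested markers the median log2 fold change in vehicle against WT was -1.23, and Cd4 (-2.21), Cd8a (-1.70), Lck (-1.23) and Klrb1c (-0.84) had negative values that were not called. The part of such cells in the level of Zbtb16 was not tested.

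Ddit4 (chr10:59949669-59951834, minus strand) encodes REDD1, an inhibitor of mTORC1. Its level was 2.72, 6.54 and 7.11 CPM in WT, 9.14, 14.1 and 8.41 CPM in vehicle cells, 1.15, 10.3 and 2.62 CPM with AG221, 9.80, 5.51 and 12.3 CPM with Rux, and 7.62, 2.59 and 5.27 CPM with combo. Vehicle lay above WT and above combo with no overlap, but the libraries within groups differed widely, AG221 most of all. The share of all tested genes without such overlap was not counted. The changes were 0.95 in vehicle against WT (95% CI -0.43 to 2.33, adjusted p = 0.261), -1.18 with AG221 (-2.57 to 0.22, adjusted p = 0.27) and -1.04 in combo against vehicle (-2.43 to 0.35, adjusted p = 0.34), none of them called. Without AG221 A9 the AG221 change was -2.48 and was called (adjusted p = 0.00807), whereas without other libraries its adjusted p reached 0.602. Of 10 genes that act with Ddit4 in mTORC1 and stress control, 3 were called higher in vehicle against WT, beside 33.3% of all genes, and 3 lower in combo against vehicle, beside 12.5%. In both comparisons they were the stress factors Atf4 (1.18, adjusted p = 0.00079, then -1.08, adjusted p = 0.00229) and Ddit3 (0.92, then -0.89) and the mTORC1 inhibitor Tsc2 (0.53, then -0.49).

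Immediate early genes, the first wave of genes that growth factor, cytokine and stress signals induce, changed in the same libraries as Per1 and Sgk1. Their summed level over 17 genes was 693 to 917 CPM in WT and 644 to 1142 CPM with combo, and 6274 to 13283 CPM in vehicle, 3239 to 4619 CPM with AG221 and 3648 to 8038 CPM with Rux. As with Per1 and Sgk1, the WT and combo libraries lay below all others, which is again letter B against letter A. How common this split was over all tested genes was not counted. Of the 17, 15 were called higher in vehicle against WT, beside 33.3% of all genes called, and 13 lower in combo against vehicle, beside 12.5%. With AG221 the test in edgeR called 0, and 12 had an unadjusted p under 0.05, beside 4498 of 17834 genes. DESeq2 called 6 lower with AG221, beside 1095 lower of 14584 genes. With Rux edgeR called 0, and 5 had an unadjusted p under 0.05, beside 813 of 17834 genes. DESeq2 called 1 lower with Rux, beside 44 lower of 18925 genes. In combo against WT the count was 0 by adjusted and unadjusted p and in DESeq2. Fos was 79.8 to 126 CPM in WT, 1819.7 to 4975 CPM in vehicle and 33.4 to 129 CPM with combo. Among the 9 libraries with high sums, Sgk1 stayed between 26.5 and 36.2 CPM while the sums ran from 3239 to 13283 CPM. The part of these genes or their inducers in the levels of Per1 and Sgk1 was not tested.

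**Figure D3:**
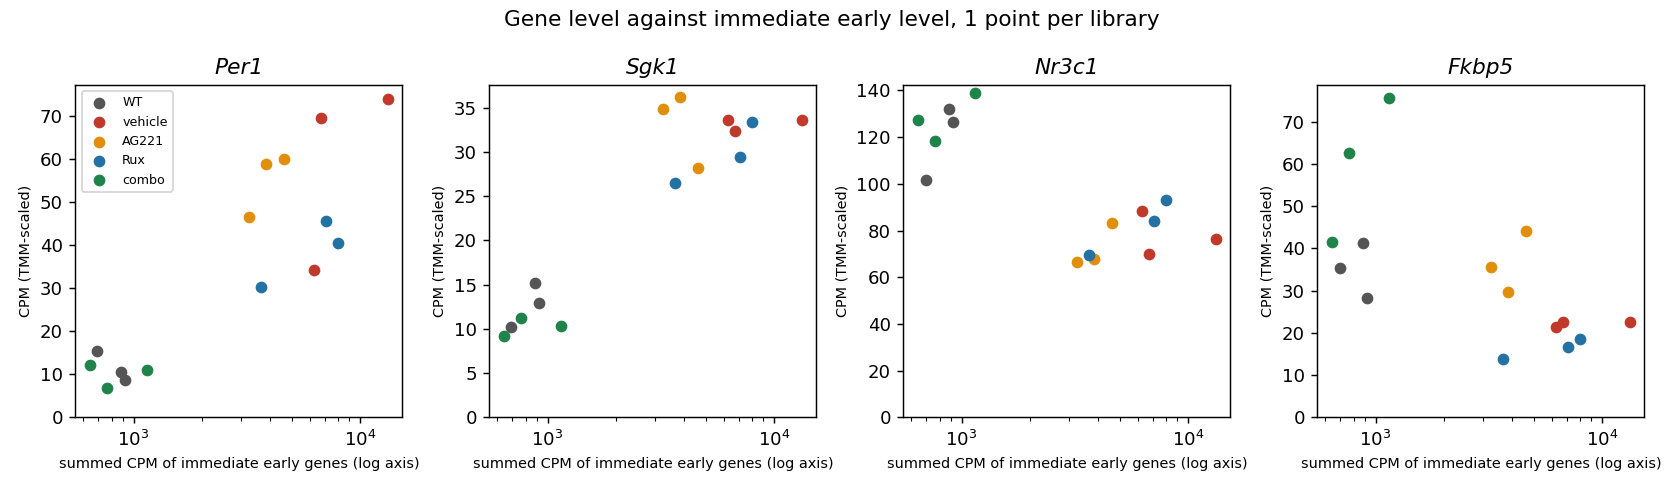
Level of Per1, Sgk1, Nr3c1 and Fkbp5 (y axis, CPM, linear from 0) against the summed CPM of 17 immediate early genes (x axis, log scale), with 1 point for each of 15 libraries coloured by group. The 6 WT and combo libraries, all of letter B, cluster at sums up to 1142 CPM, with low Per1 and Sgk1 and high Nr3c1. The other 9, all of letter A, form another cluster. Fkbp5 does not split the same way, since AG221 libraries overlap WT.

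Summed markers of other lineages also moved with the groups. Myeloid markers summed to 3367 to 3780 CPM in WT, 7325 to 11949.9 CPM in vehicle, 15857 to 19038 CPM with AG221, 11416 to 18158 CPM with Rux and 4003 to 6865 CPM with combo. Mpo and Elane made up most of it, with means of 11212 and 4306 CPM with AG221, whereas mean Lyz2 was 263 CPM in WT and 278 CPM in vehicle. Of the 10 markers 3 were called higher and 0 lower in vehicle against WT, beside 33.3% of all genes, and 0 were called with AG221, beside 0.987%. B-lineage and plasma cell markers summed to 3460 to 10875 CPM in WT and to 115 to 775 CPM in the 12 mutant libraries. Mast cell and basophil markers summed to 75.2 to 152 CPM in WT, 542 to 1005 CPM in vehicle and 260 to 424 CPM with combo, and erythroid markers to 317 to 448, 729 to 1484 and 669 to 1757 CPM. Car1 made up most of the erythroid sum. From vehicle to combo mean Klf1 went from 58.0 to 112 CPM and mean Hbb-bs from 62.5 to 13.0 CPM, and 0 of 8 erythroid markers were called. The part of these lineages in the changes of the 8 genes was not tested.

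A further 30 genes that glucocorticoids are known to induce did not change in a single direction. In vehicle against WT 7 were called higher and 4 lower, a share near the 33.3% of all genes, with a median log2 fold change of -0.18. The smallest adjusted p was that of Zfp36, which encodes an mRNA decay factor (3.44, adjusted p = 4.42e-05), followed by Rasd1, a small GTPase (2.21, adjusted p = 0.00108), the metallothionein Mt1 (1.87, adjusted p = 0.00145) and Nfkbia, the NF-kB inhibitor (2.20, adjusted p = 0.00285). The 4 lower genes were Sesn1, Mertk, Txnip and Cdkn1c. In combo against vehicle 4 were lower (Zfp36 -3.82, Rasd1 -2.50, Rgs2 -1.36 and Nfkbia -2.15) and 3 higher (Mknk2 1.66, Arrdc2 1.64 and Cited2 1.44), beside 12.5% of all genes. In combo against WT Mt1 alone was called (1.52, adjusted p = 0.0156), beside 3.25% of all genes. With AG221 10 of 30 had an unadjusted p under 0.05 in edgeR, beside 4498 of 17834 genes, and with Rux 2 had, beside 813. None of the 30 was called by edgeR with either drug. DESeq2 called 4 with AG221, beside 2247 of 14584 genes, and 0 with Rux, beside 50 of 18925. In combo against vehicle Zfp36, Rasd1, Rgs2 and Nfkbia thus went in the direction of Per1 and Sgk1, and Mknk2, Arrdc2 and Cited2 in that of Fkbp5. Zfp36, Nfkbia and Rgs2 are also induced by growth and inflammatory signals. The part of glucocorticoids or of other signals in either direction was not tested.

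Of 11 inflammatory genes that the receptor is known to repress, 10 could be tested. In vehicle against WT 6 of them were called higher and none lower, beside 33.3% of all genes, and in combo against vehicle 6 were called lower and none higher, beside 12.5%. The prostaglandin synthase gene Ptgs2 was 0.539 to 0.972 CPM in WT, 23.1 to 50.7 CPM in vehicle and 0.38 to 0.971 CPM with combo. The cytokine gene Tnf was 2.33 to 3.45 CPM in WT, 28.4 to 46.1 CPM in vehicle and 1.31 to 3.76 CPM with combo. Both stayed above WT with AG221 (Ptgs2 19.2 to 27.2 CPM) and with Rux (Ptgs2 15.8 to 24.6 CPM). Tnf averaged 44.1 CPM with AG221, within reach of vehicle. With Rux it averaged 23.4 CPM, and every Rux library lay below every vehicle library. Il6 was the only gene of the list called with AG221 (-1.52, adjusted p = 0.0458). Its mean was 5.16 CPM in vehicle, 1.79 CPM with AG221 and 1.31 CPM with Rux, so its level was no higher with Rux. With Rux edgeR called 0 of the list, and 3 had an unadjusted p under 0.05, beside 813 of 17834 genes. DESeq2 called 1 lower with Rux, beside 44 lower of 18925 genes, and 2 lower with AG221, beside 1095 lower of 14584. Il1b was the only gene of the list still called in combo against WT (2.87, adjusted p = 0.0137).

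**Figure D4:**
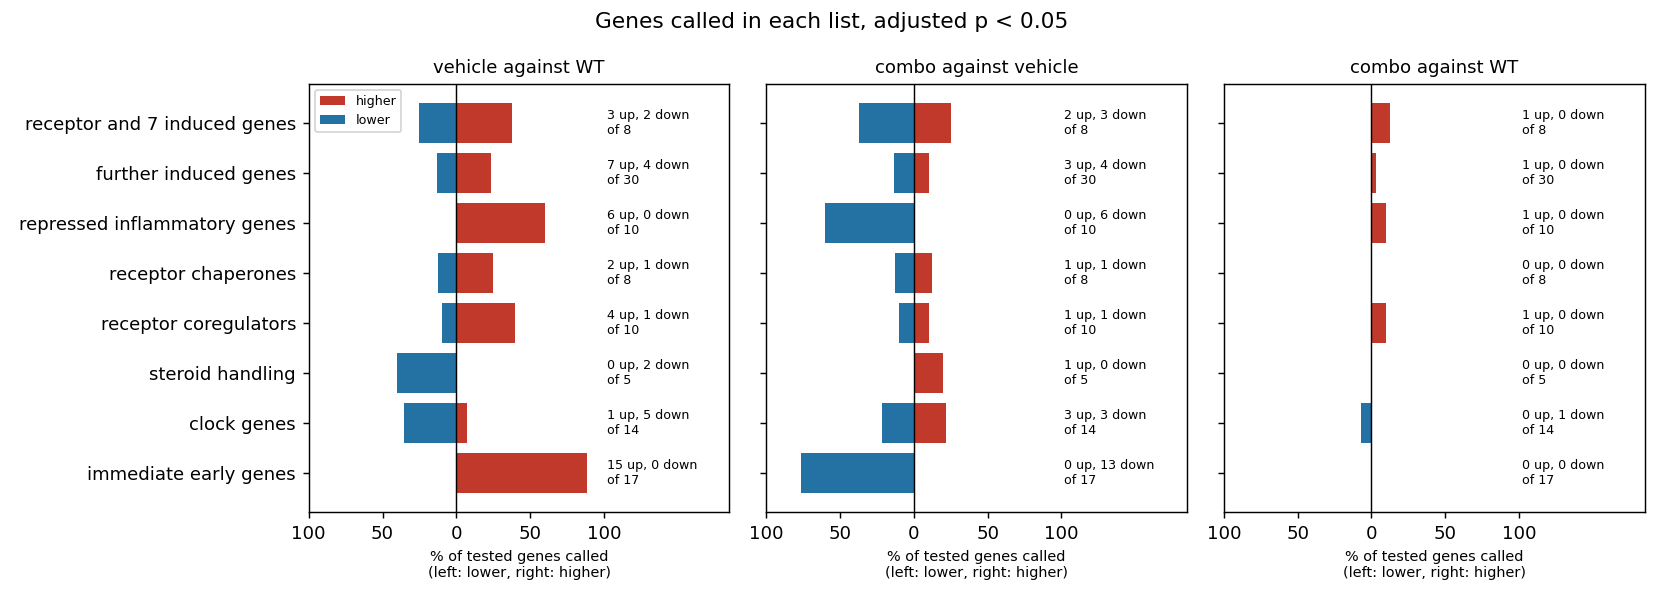
Share of the tested genes of each list that were called higher (right, red) or lower (left, blue) in 3 comparisons, in percent, with the counts written at the right. Immediate early and repressed inflammatory genes go one way in vehicle against WT (15 of 17 and 6 of 10 higher) and the other way in combo against vehicle (13 of 17 and 6 of 10 lower), and the induced genes split in both comparisons.

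The machinery around the receptor held calls in both directions. Of 8 chaperones and co-chaperones that fold it, Hsp90aa1 (0.80, adjusted p = 0.0162) and Stip1 (0.70, adjusted p = 0.0316) were called higher and Bag1, which modulates HSP70 and receptor activity, lower (-1.40, adjusted p = 0.0416) in vehicle against WT, and 3 of 8 is near the 33.3% of all genes. In combo against vehicle, where 12.5% of all genes were called, Bag1 was higher (2.82, adjusted p = 0.00415) and Hspa8 lower (-0.92, adjusted p = 0.0262). Fkbp4, the co-chaperone that competes with FKBP51, was 309 to 374 CPM in WT, 135 to 313 CPM in vehicle, 76.2 to 230.3 CPM with AG221, 124 to 303 CPM with Rux and 402 to 637 CPM with combo, and was called in combo against AG221 only (1.95, adjusted p = 0.00672).

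Of 10 coregulators, the coactivator subunit Med1 (0.46, adjusted p = 0.0216) and Sin3a, Ncoa3 and Smarca4 (0.40 to 0.45) were called higher and the coactivator Ncoa1 lower (-0.56, adjusted p = 0.0402) in vehicle against WT, 5 of 10 beside 33.3% of all genes. The corepressor Ncor1 was called higher in combo against vehicle (0.65, adjusted p = 0.00378) and against WT (0.56, adjusted p = 0.024), and Med1 was lower in combo against vehicle (-0.51, adjusted p = 0.0249). Of 6 genes for steroid handling 5 were tested, and 2 were called in vehicle against WT and 1 in combo against vehicle, beside 33.3% and 12.5% of all genes. The mineralocorticoid receptor Nr3c2, which also binds glucocorticoids, fell in vehicle against WT (-2.05, adjusted p = 0.0111), from 4.16 to 5.33 CPM in WT to 0.276 to 1.80 CPM, and was 1.02 to 1.51 CPM with combo. H6pd, which supplies cofactor to the enzyme that regenerates active glucocorticoid, fell in vehicle against WT (-0.92, adjusted p = 0.0212) and rose in combo against vehicle (1.26, adjusted p = 0.00887). The gene for that enzyme, Hsd11b1, ranged from 6.71 to 10.2 CPM in WT, 4.93 to 21.8 CPM in vehicle, 25.8 to 34.1 CPM with AG221 and 5.53 to 8.36 CPM with combo, and was called lower in combo against AG221 (-2.01, adjusted p = 0.00482).

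Other clock genes were examined because Per1 belongs to the clock. Of 14, 1 was called higher and 5 lower in vehicle against WT, beside 33.3% of all genes, the higher one being Bhlhe40 (2.33, adjusted p = 0.00627) and the lower ones including the activator Arntl (-1.02, adjusted p = 0.00365). In combo against vehicle, beside 12.5% of all genes, 3 were higher, among them Cry1 (2.21, adjusted p = 0.0108), and 3 lower, among them Bhlhe40 (-2.43, adjusted p = 0.00657) and Ciart (-1.49, adjusted p = 0.00909). Per2, also a glucocorticoid target, differed from Per1: its level was 30.4 to 43.2 CPM in WT, 13.6 to 32.5 CPM in vehicle and 21.0 to 28.2 CPM with combo, and neither comparison called it. Only Clock was called in combo against WT (-0.91, adjusted p = 0.0225).

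For each of the 8 genes, the tested genes with the most similar profile over the 15 libraries were found by the root mean square difference of mean-centred log2 CPM. For Nr3c1 they were Hipk3 (0.11) and Nsd3 (0.11), for Fkbp5 Aebp2 (0.17) and Snx18 (0.18), for Sgk1 Gm23136 (0.21) and Neat1 (0.23), and for Per1 Rasd1 (0.32) and Gm38200 (0.32). Those of Tsc22d3 were Dusp18 (0.24) and Vmn1r-ps145 (0.26), those of Klf9 Dtnbp1 (0.26) and Poln (0.28), those of Zbtb16 Zfp385a (0.28) and Sipa1l1 (0.31), and those of Ddit4 Best1 (0.40) and Dnajb1 (0.46). None of these neighbours is among the other 7 genes. Within the 8, the closest pair was Nr3c1 and Fkbp5 (0.53), followed by Nr3c1 and Klf9 (0.55), Fkbp5 and Klf9 (0.57) and Per1 and Sgk1 (0.57). Over all tested genes the median distance was 0.63 from Nr3c1, 0.85 from Fkbp5, 0.95 from Sgk1 and 1.30 from Per1. These medians rose with the spread of each gene over the libraries (SD of log2 CPM 0.38, 0.69, 0.78 and 1.20). The 0.53 of Nr3c1 and Fkbp5 and the 0.57 of Per1 and Sgk1 were each below the medians from both genes of the pair. The 0.53 was nearest the median from Nr3c1.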

How the data were processed

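RNA was sequenced from 15 libraries of sorted CD45.2+ LSK cells, amplified with the SMARTer kit. The authors deposited raw counts of paired-end reads per Ensembl gene, made with STAR 2.5.1a against mm10 with default parameters, and the submitters' processing notes also name DESeq2 1.6.3. The deposited table of DESeq2 normalized counts was not used. The Ensembl release and the strand setting are not given in the sources used here, but 0% of the exon length of each of the 8 genes overlaps another gene on either strand.

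Symbols and GRCm38 positions came from the GENCODE mouse annotation, which matched 44585 of 45232 IDs and left 647 without a symbol. Genes were filtered with filterByExpr by group, counts were scaled by TMM, and all 15 libraries entered a quasi-likelihood fit with 5 groups and no covariate (edgeR 4.0.16, R 4.3.3). P-values were adjusted over all tested genes by the Benjamini-Hochberg method at 0.05, and log2 CPM for likeness between genes used a prior count of 2. The script was tested on simulated data. Groups came from the labels. The study gives 3 per group and speaks of treated mice, but does not say outright that each library was 1 mouse; p-values measure only the spread between these libraries. Replicate libraries differed by more than sampling noise (chi-square per degree of freedom of 13.7 to 155), and none was merged.

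The text names the 8 genes, up to 4 called genes with the smallest adjusted p of each list in a comparison, genes whose level touches a result of the 8, and the 2 tested genes most like each of the 8. Genes named beyond this rule, such as Per2, Cited2 and the fifth and later called genes of a list, were chosen after their values were seen. The 8 genes and the lists, written from general knowledge, were chosen with earlier results of these data known. Alternatives were DESeq2 1.42.0, other scalings and filters on low counts, offsets for GC content, fits restricted to the groups in question, and the omission of each library. Promoter windows came from RefSeq and held 6 of the 8 genes.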

Additional observations from a re-analysis of the deposited data

Results flagged for a closer look

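For 3 of the 8 genes, combo differed from the added changes of both drugs by a direct test of that difference. In other words, the change from Rux to combo differed from the change from vehicle to AG221. For Fkbp5 the change from Rux to combo exceeded that from vehicle to AG221 by 1.16 on the log2 scale (adjusted p = 0.0446, edgeR's quasi-likelihood test). For Per1 the difference was -1.85 (adjusted p = 0.0362) and for Sgk1 -1.54 (adjusted p = 0.0114). Each of them compares 3 groups of letter A with the combo group of letter B, so the difference and the letter cannot be told apart.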

How the results depend on the processing

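Of 371 log2 fold changes of the 8 genes recomputed under alternatives other than left-out libraries, 336 kept their direction and their side of the threshold, 12 were no longer called, 11 were newly called and 12 changed sign. With libraries left out, the numbers were 273, 46, 6 and 17 of 342. The number of the 8 genes called in AG221 against vehicle (1) became 2 with DESeq2 or upper quartile scaling and 0 in a fit of only the groups compared. In combo against WT (1) it became 2 with DESeq2 or GC content offsets and 0 with upper quartile scaling or at least 10 counts in every library, and for the departure from the sum of both drugs (3) it became 1 in a fit of only the groups compared. With a library left out it was 3 to 5 in vehicle against WT, 0 to 2 in AG221 against vehicle, 4 to 6 in combo against vehicle, 0 to 1 in combo against WT, 3 to 4 in combo against AG221 or Rux, 1 to 4 for the departure and 0 in Rux against vehicle. The cause of these shifts was not tested.

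None of the values that changed sign was called. In the main fit they lay between -0.22 (Per1, combo against WT) and 0.17 (Klf9, combo against vehicle), and after the change of sign they reached up to 0.42. Sgk1 in AG221 against vehicle (-0.0036) became 0.041 with DESeq2, 0.049 with RLE scaling, 0.20 with upper quartile scaling, 0.023 without a filter, 0.017 with at least 10 counts, 0.048 with GC content offsets and 0.010 in a fit of only the groups compared. Upper quartile scaling gave 0.075 for Nr3c1 and 0.069 for Per1 in AG221 against vehicle and -0.10 for Nr3c1 in combo against WT, which was -0.030 with at least 10 counts, and GC content offsets gave 0.42 for Per1 in AG221 against vehicle. With a library left out, AG221 against vehicle ranged from -0.39 to 0.079 for Per1, -0.036 to 0.091 for Sgk1 and -0.066 to 0.52 for Klf9, and Rux against vehicle from -0.028 to 0.18 for Nr3c1 and -0.47 to 0.070 for Ddit4. Klf9 ranged from -0.0083 to 0.58 in combo against vehicle, and combo against WT from -0.37 to 0.059 for Per1 and -0.46 to 0.26 for Ddit4.

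Fkbp5 in combo against AG221 was not called with upper quartile scaling, without a filter, with GC content offsets or in a fit of only the groups compared. Over all tested genes, alternatives other than left-out libraries gave 0 to 2247 calls in AG221 against vehicle (176 reported), 0 to 50 in Rux against vehicle (3), 274 to 1800 in combo against WT (579), 3788 to 7030 in combo against AG221 (5917) and 167 to 3671 for the departure (1502). With a library left out these counts were 0 to 4672, 0 to 9, 88 (without combo B25) to 415, 3002 (without AG221 A8) to 8140 and 44 (without combo B25) to 6087 (without AG221 A9), and 1137 (without combo B24) to 1899 in combo against Rux (2217). Upper quartile scaling moved the median log2 fold change of all genes to 0.18 in AG221 against vehicle, -0.18 in combo against AG221 and -0.24 for the departure, and GC content offsets to 0.10 in vehicle against WT. No paired analysis was possible because the replicate names are not shared between groups. The lowest level of the 8 genes was 1.15 CPM (Ddit4 in AG221 A8, 27 counts), above the floor of at most 0.157 CPM. The part of depth in the spread between libraries was not tested.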
